A study of Mus musculus with 12 samples.

Results

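The genes described here are 10 heat-shock chaperones of the cytosol and of the mitochondrial matrix: Hspa1a, Hspa1b, Hspa8, Hsp90aa1, Hsp90ab1, Hsph1, Dnajb1, Hspb1, Hspd1 and Hspe1. They were taken by gene symbol from a deposited table of 24346 genes, as a set named with earlier results of these data known. All 10 passed the filter on low counts that left 17380 genes for testing.

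The study injected the nigra of C57BL/6 mice on both sides with preformed fibrils of G51D alpha-synuclein (20 ug at 5 ug/uL) or with saline, and asked how gene expression in dopaminergic neurons differed 7 and 12 weeks later. G51D is a mutation of the synuclein gene found in inherited parkinsonism. Midbrain tissue was dissected, cells carrying the orange fluorescent protein hKO1 were sorted, and their RNA was amplified before sequencing. The groups were synuclein at 12 weeks, saline at 12 weeks, synuclein at 7 weeks and saline at 7 weeks, with 3 libraries each. All 4 groups had been injected, so that they differed in what was injected and in the time since. The labels give neither the age of the mice nor the promoter that drives hKO1, and nothing states that each library came from separate animals. The p-values below therefore measure only the spread between these libraries, part of which may be technical.

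Heat-shock chaperones bind proteins that are unfolded or partly folded, keep them from aggregating and help them reach their native shape. HSP70 proteins do so in cycles of ATP hydrolysis that J-domain proteins start and HSP110 proteins end by exchanging the nucleotide, while HSP90 dimers act later on clients such as kinases and steroid receptors. Most cells make a constitutive set at all times and add an inducible set when heat-shock factor HSF1 binds repeated heat-shock elements in front of the genes, and in test-tube studies an HSP70, a J-domain protein and an HSP110 together can take alpha-synuclein fibrils apart.

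Heat-shock elements are sought in the sequence upstream of a gene, so those windows are shown first. RefSeq (GRCm38.p6) listed promoters of 7 members: Hspa1a, Hspa1b, Hsph1, Dnajb1, Hspb1, Hspd1 and Hspe1. The deposited 5′ end of each of the 7 genes was itself a RefSeq transcription start. For Hsph1, Dnajb1 and Hspd1 RefSeq listed 2 promoters, and only the 1 at the deposited 5′ end was used. The search was for pairs of inverted heat-shock units, GAANNTTC and TTCNNGAA, in the 250 bases upstream of each start. Either motif reads the same on both strands, and neighbouring matches may overlap. Matches are in capitals, each window is written 5′ to 3′ on the strand of its gene, and positions count back from -1, the base before the start. Hspa1a (chr17:34972157-34972406, minus strand) and Hspb1 (chr5:135887669-135887918, plus strand) stand for the inducible HSP70 and the small heat-shock protein. Hspa1b (chr17:34959239-34959488, minus strand) is shown because it is nearly the same as Hspa1a. Hsph1 (chr5:149636316-149636565, minus strand) and Dnajb1 (chr8:83607925-83608174, plus strand) are the HSP110 and the J-domain protein. Hspd1 and Hspe1 lie head to head on chromosome 1, and the 215 bases between their starts (chr1:55087933-55088147, plus strand) are shown once for both.
Hspa1a: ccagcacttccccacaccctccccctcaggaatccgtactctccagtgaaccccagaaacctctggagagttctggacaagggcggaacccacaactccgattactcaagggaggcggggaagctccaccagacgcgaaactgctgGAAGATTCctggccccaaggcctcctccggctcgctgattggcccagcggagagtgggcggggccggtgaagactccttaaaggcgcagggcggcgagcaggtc
Hspa1b: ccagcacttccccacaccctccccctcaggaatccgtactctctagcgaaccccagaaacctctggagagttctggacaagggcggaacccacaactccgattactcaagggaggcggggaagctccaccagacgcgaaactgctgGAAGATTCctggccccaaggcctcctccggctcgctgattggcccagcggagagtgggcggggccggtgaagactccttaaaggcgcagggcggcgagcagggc
Hsph1: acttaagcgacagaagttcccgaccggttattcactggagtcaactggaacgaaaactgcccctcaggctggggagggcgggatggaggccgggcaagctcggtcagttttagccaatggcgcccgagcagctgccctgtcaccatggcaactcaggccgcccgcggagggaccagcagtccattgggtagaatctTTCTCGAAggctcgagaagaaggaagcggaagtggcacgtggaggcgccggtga
Dnajb1: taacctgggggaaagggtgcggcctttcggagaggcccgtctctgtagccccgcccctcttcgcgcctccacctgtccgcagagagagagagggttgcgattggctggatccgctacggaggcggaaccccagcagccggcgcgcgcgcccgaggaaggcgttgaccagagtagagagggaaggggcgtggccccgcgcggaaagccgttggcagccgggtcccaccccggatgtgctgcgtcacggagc
Hspb1: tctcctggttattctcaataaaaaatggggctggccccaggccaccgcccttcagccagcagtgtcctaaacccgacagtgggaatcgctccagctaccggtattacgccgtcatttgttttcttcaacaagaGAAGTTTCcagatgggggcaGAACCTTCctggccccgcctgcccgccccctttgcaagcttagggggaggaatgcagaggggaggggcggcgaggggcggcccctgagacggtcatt
Hspd1 and Hspe1: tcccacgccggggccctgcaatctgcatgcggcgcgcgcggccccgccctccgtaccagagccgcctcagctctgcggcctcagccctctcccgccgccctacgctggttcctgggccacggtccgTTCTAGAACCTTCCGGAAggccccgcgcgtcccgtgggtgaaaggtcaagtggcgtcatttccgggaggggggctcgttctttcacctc

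A pair of inverted units was found in 6 of the 7 windows, where 12.8% of 32851 mouse promoters of the same length held at least 1. The 6 windows are not separate cases, since Hspa1a and Hspa1b are near copies and Hspd1 and Hspe1 share the same matches. Hspa1a and Hspa1b each held GAAGATTC from -104 to -97, and their windows differed from each other at 3 of 250 positions. Hsph1 held TTCTCGAA from -54 to -47. Hspb1 held 2 separate matches, GAAGTTTC from -117 to -110 and GAACCTTC from -97 to -90, a number that 1.46% of all promoters reached or passed. The stretch between Hspd1 and Hspe1 held 18 bases in which 3 matches overlap. These spell out 1 unbroken run of alternating units, TTC, GAA, TTC and GAA, each set apart from the next by 2 bases. A run of at least 3 such units was held by 0.466% of all promoters, and longer runs were not counted apart. The Dnajb1 window held no match, and the other promoter listed for that gene is not described here. These matches describe the sequence and say nothing of whether a factor was bound in these cells.

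The libraries differed in depth, and 2 of them stood apart from the rest. The deposited counts corresponded to 2506730 to 5533324 whole fragments per library. Replicate 1 of synuclein at 12 weeks lay apart on the second principal component, and replicate 2 of that group lay apart on the first, with fragments for 17409 genes where the other 11 libraries had 19960 to 21135. Dopaminergic markers were present in every library, Th between 161 and 858 CPM, the fragments of a gene scaled to a common library size, and Slc6a3 between 91.7 and 638 CPM, but the myelin gene Mbp reached 3364 to 10737 CPM and the endothelial gene Ly6c1 2215 to 6504 CPM. RNA of those other cell types was thus measured together with that of dopaminergic neurons. In such bulk RNA, fewer cells of a type and less RNA per cell cannot be told apart.

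Levels of different genes were compared in FPKM, which divides by transcript length. Hspa8, the constitutive cytosolic HSP70, was highest, with a median of 1062 FPKM over the 12 libraries (721 to 2015), and it was above Hsp90ab1 in 11 of 12 libraries. Hsp90ab1, the constitutive HSP90, had a median of 666 FPKM (477 to 1327), and Hspb1, a small heat-shock protein that holds unfolded clients without ATP, had 661 FPKM (278 to 1695). These 2 genes did not differ beyond their spread: Hsp90ab1 was above Hspb1 in 5 of 12 libraries, with a mean log2 ratio of 0.08 ± 0.47 (SD, n = 12). Hsp90aa1, the stress-responsive HSP90, followed at 211 FPKM (126 to 446).

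The mitochondrial pair came next. Hspe1, the lid of the mitochondrial chaperonin, had a median of 73.6 FPKM (54.2 to 133), and Hspd1, its barrel-forming HSP60 partner, 47.6 FPKM (34.3 to 72.3). Hspe1 was above Hspd1 in 12 of 12 libraries, by a mean log2 ratio of 0.65 ± 0.32 (SD, n = 12). This order rests on the division by transcript length, since Hspd1 had more fragments than Hspe1 in every library. Dnajb1, the J-domain protein that hands clients to HSP70, had a median of 23.8 FPKM (20.9 to 59.6) and Hsph1, the HSP110 exchange factor, 20.8 FPKM (8.63 to 71.1). Dnajb1 was above Hsph1 in 8 of 12 libraries, so this order was not the same throughout (mean log2 ratio 0.35 ± 0.55, SD, n = 12). The inducible HSP70 genes were lowest, Hspa1b at 2.91 FPKM (0.245 to 51.5) and Hspa1a at 2.41 FPKM (1.16 to 45.9), and neither was above the other beyond the spread (mean log2 ratio of Hspa1b to Hspa1a -0.14 ± 1.15, SD, n = 12).

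**Figure D1:**
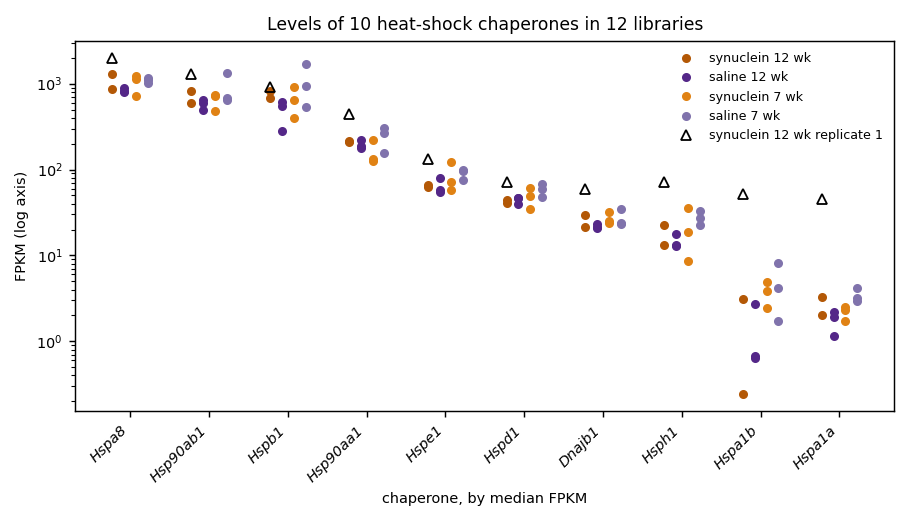
FPKM of each chaperone (log axis) in 12 libraries, with genes ordered by median. Points are libraries coloured by group and the open triangle is replicate 1 of synuclein at 12 weeks. Hspa8 has the highest median (1062 FPKM) and Hspa1a the lowest (2.41 FPKM), and the triangle lies far above the other libraries for Hspa1a and Hspa1b.

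The inducible HSP70 genes, made in small amounts without stress, were at low counts everywhere except in 1 library. Hspa1a (chromosome 17, 34969359 to 34972156) had 122, 5.21 and 8.78 CPM in replicates 1 to 3 of synuclein at 12 weeks, against 6.09, 5.13 and 3.16 CPM in saline at 12 weeks. At 7 weeks it had 6.65, 4.58 and 6.29 CPM after synuclein, against 8.01, 11.2 and 8.61 CPM after saline. Replicate 1 of synuclein at 12 weeks stood alone, 19.4 times the median of the other 11 libraries and 10.8 times the highest of them. Hspa1b (chromosome 17, 34956429 to 34959238) had 137, 0.548 and 8.22 CPM after synuclein at 12 weeks, against 1.74, 7.41 and 1.72 CPM after saline. Its 7-week values were 10.4, 13.5 and 6.57 CPM after synuclein, against 11.2, 22.2 and 4.59 CPM after saline. The same library was the high one, 18.5 times the median of the others, and outside it the groups overlapped for Hspa1b.

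These low values rest on few fragments, and the split between the 2 genes is uncertain. Outside the high library, Hspa1a had 12 to 44 fragments and Hspa1b 3 to 80, whereas in it they had 419 and 472. The coding sequences of Hspa1a and Hspa1b were 99.4% identical, differing at 11 aligned positions with gaps counted, and 58.8% of all 50-base windows of the Hspa1a transcript also occurred in that of Hspa1b. By contrast, Hspa1a and Hspa8 shared no such window at 73.9% identity, and neither did Hsp90aa1 and Hsp90ab1 at 75.4%. The sum of Hspa1a and Hspa1b does not depend on the split if each shared fragment was counted for only 1 of the 2 genes, which was not tested. It was 259 CPM (891 fragments) in replicate 1 of synuclein at 12 weeks and 4.88 to 33.5 CPM in the other 11 libraries, a ratio of 19.6 to their median.

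The constitutive HSP70 and the HSP70 helpers were also highest in that library, by less. Hspa8 (chromosome 9, 40801273 to 40805199) had 3910, 2462 and 1701 CPM after synuclein at 12 weeks, against 1647, 1755 and 1598 CPM after saline. Its 7-week values were 2423, 2233 and 1418 CPM after synuclein, against 2158, 2042 and 2323 CPM after saline. Saline at 12 weeks was the tightest group for Hspa8, with replicates 1 and 2 of synuclein above all of it and replicate 3 inside its range. Hsph1 (chromosome 5, 149616845 to 149636315) had 238, 74.0 and 44.8 CPM after synuclein at 12 weeks, against 61.5, 45 and 43.6 CPM after saline, and 122, 64.1 and 29.4 CPM after synuclein at 7 weeks, against 93.6, 114 and 77.2 CPM after saline. Dnajb1 (chromosome 8, 83608175 to 83612653) had 172, 82.5 and 61.5 CPM after synuclein at 12 weeks, against 63.2, 66.7 and 60.9 CPM after saline. Its values at 7 weeks were 94.3, 72.1 and 67.4 CPM after synuclein, against 69.0, 67.5 and 103 CPM after saline. For Hsph1 and Dnajb1 the 12-week groups overlapped through replicate 3 of synuclein, and replicate 1 was 3.72 and 2.54 times the median of the other 11 libraries.

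The HSP90 genes showed a second high library. Hsp90aa1 (chromosome 12, 110691036 to 110696395) had 1207, 563 and 567 CPM after synuclein at 12 weeks, against 620, 510 and 490 CPM after saline, and 617, 364 and 345 CPM after synuclein at 7 weeks, against 741, 841 and 428 CPM after saline. Hsp90ab1 (chromosome 17, 45567778 to 45573261) had 3047, 1887 and 1415 CPM after synuclein at 12 weeks, against 1186, 1426 and 1540 CPM after saline. Its 7-week values were 1727, 1772 and 1138 CPM after synuclein, against 1647, 3196 and 1537 CPM after saline. Replicate 2 of saline at 7 weeks was the highest library for Hsp90ab1, just above replicate 1 of synuclein at 12 weeks, and the second highest for Hsp90aa1.

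Hspb1 followed another course. Hspb1 (chromosome 5, 135887919 to 135889563) had 647, 570 and 485 CPM after synuclein at 12 weeks, against 202, 435 and 394 CPM after saline, so all 3 synuclein libraries were above all 3 saline libraries. Its values at 7 weeks were 291, 648 and 459 CPM after synuclein, against 386, 1226 and 676 CPM after saline. Replicate 1 of synuclein at 12 weeks was only the fourth highest library for Hspb1 (1.41 times the median of the others), and replicate 2 of saline at 7 weeks was the highest.

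The mitochondrial chaperonin genes were the last of the set. Hspd1 (chromosome 1, 55077834 to 55087932) had 157, 86.9 and 95.5 CPM after synuclein at 12 weeks, against 103, 103 and 87.9 CPM after saline, and 137, 110 and 75.7 CPM after synuclein at 7 weeks, against 148, 131 and 107 CPM after saline. Hspe1 (chromosome 1, 55088148 to 55091317) had 75.6, 36.5 and 36.0 CPM after synuclein at 12 weeks, against 46.4, 31.1 and 33.9 CPM after saline, and 71.4, 33.5 and 41.4 CPM after synuclein at 7 weeks, against 43.2, 57.7 and 55.7 CPM after saline. Both were highest in replicate 1 of synuclein at 12 weeks, but only 1.06 times the next library. Over the 12 libraries the coefficient of variation of FPKM was 22.9% for Hspd1, the lowest of the 10 genes, and 31.8% for Hspe1. Without that library the lowest was 18.3% for Dnajb1, which had 38.3% with it.

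**Figure D2:**
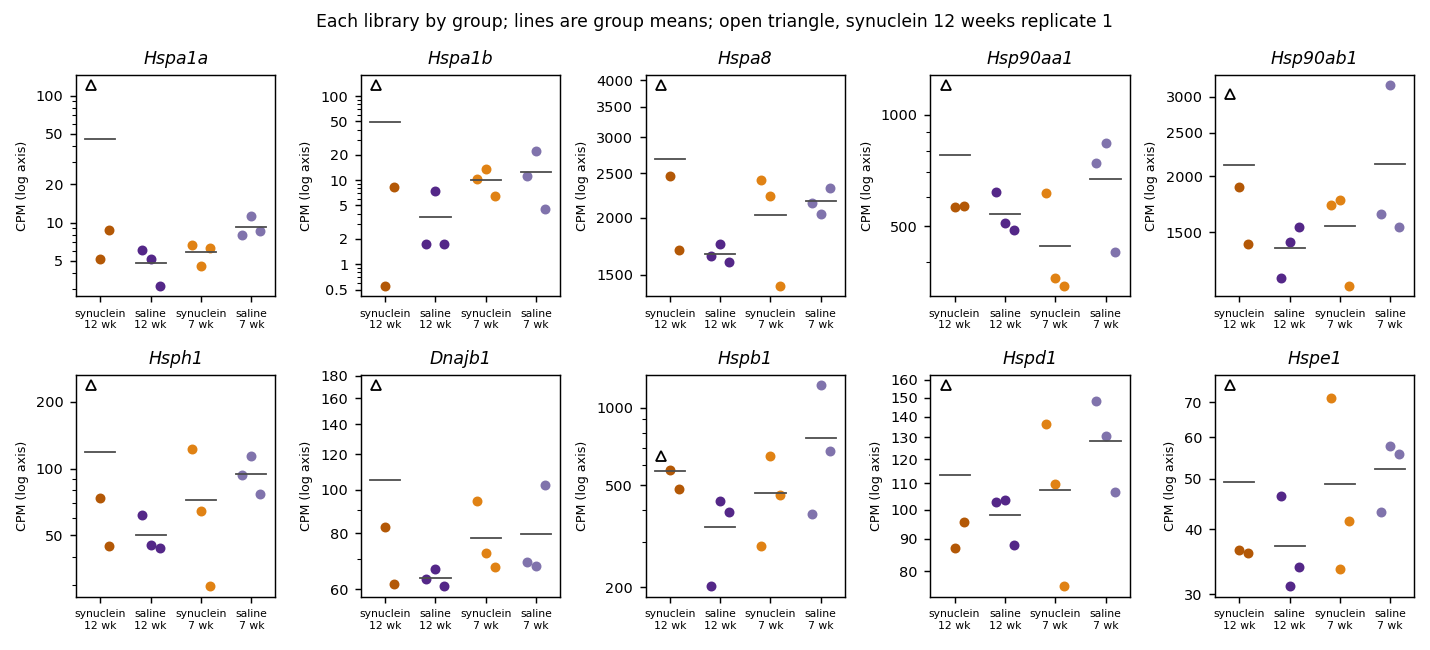
CPM of each chaperone (log axis) in every library, by group from left to right synuclein and saline at 12 weeks, then synuclein and saline at 7 weeks. Points are libraries, lines are group means, and the open triangle is replicate 1 of synuclein at 12 weeks. The triangle is the highest point for 8 of 10 genes, and replicate 2 of saline at 7 weeks is the highest for Hsp90ab1 and Hspb1.

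Taken gene by gene, 8 of the 10 chaperones were highest in replicate 1 of synuclein at 12 weeks, where 12% of all genes tested were highest. In that library 5 chaperones were above 2 times the median of the other 11 libraries (12% of all genes) and 2 were above 5 times it (1.77%). The median ratio was 2.06 for the chaperones and 0.99 over all genes. Together the 10 genes took 0.977% of all fragments in that library and 0.386% to 0.758% in the others. The other 2 chaperones, Hsp90ab1 and Hspb1, were highest in replicate 2 of saline at 7 weeks, as were 5.15% of all genes. Replicate 3 of synuclein at 7 weeks was lowest for 5 chaperones, where 6.01% of all genes were lowest.

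Other markers moved with that library. Of 7 genes listed as ependymal markers, 6 were highest there (Foxj1, Ccdc153, Tmem212, Dynlrb2, Rarres2 and Hdc), and Pltp ranked 11. Pltp had a median of 3773 CPM over the 12 libraries, and the other 6 had medians of 2.02 to 5.92 CPM. The sum of all 7, mostly Pltp, was 2522 CPM there, within the 2072 to 5678 CPM of the others. It therefore says little of the other 6. Without Pltp the sum was 488 CPM against 7.95 to 250 CPM in the others, which follows from each of the 6 being highest there. Replicate 2 of saline at 12 weeks had the next highest sum of these 6 markers, 250 CPM against 488 CPM, and 12.5 CPM of Hspa1a and Hspa1b together. That is 1 library with a lower marker sum, and whether these levels go together was not tested. Of 12 immediate early genes, which respond within minutes to stimulation, 2 were highest in replicate 1 of synuclein at 12 weeks (Egr2 and Nr4a1). Jun ranked 2, Fos 6 and Fosb 10, the lowest rank among the 12. The summed level of the 12 genes was 867 CPM there and 545 to 1171 CPM in the other libraries. All 7 oligodendrocyte markers ranked among the 3 highest libraries. Neuronal markers all ranked 10 to 12, as did endothelial markers except Cldn5, which ranked 4. The microglial C1qa, C1qb and C1qc ranked 12, Cx3cr1 11 and Csf1r 8. P2ry12 and Tmem119 were at 0 there, but they were at 0 in 2 and 4 libraries in all. Astrocyte markers ranked from 1 to 9 and pericyte markers from 4 to 12. The 7 dopaminergic markers were split, with Slc6a3 and Nr4a2 ranked 12, Th and Slc18a2 ranked 11, Ddc 6, En1 5 and Pitx3 3. The part of these cell types, or of tissue handling, in the chaperone levels was not tested.

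The comparison at 12 weeks asked whether synuclein fibrils altered the chaperones late after injection. All 10 chaperones had a log2 fold change above 0, where 47.3% of all genes did, with a median of 0.71 against -0.04 over all genes. The largest were the inducible HSP70 genes, Hspa1b at 3.73 ± 1.10 and Hspa1a at 3.23 ± 0.82 (SE), followed by Hsph1 at 1.25 ± 0.50. None passed the edgeR quasi-likelihood test after adjustment over all genes, which called 0 of 17380 genes (0%), while 968 had an unadjusted p under 0.05. DESeq2 called 12 genes and limma-voom 0, none of them a chaperone, but DESeq2 gave Hspa1a no adjusted p here or in the other comparisons. The edgeR adjusted p was 0.83 for Hspa1a and 0.887 for Hspa1b.

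At an unadjusted p under 0.05, 5 of the 10 chaperones were higher after synuclein at 12 weeks, where 2.27% of all genes were. These were Hspa1a, Hspa1b, Hspa8 at 0.69 ± 0.27, Hsph1 and Dnajb1 at 0.73 ± 0.33 (SE). Hspa8 averaged 2691 ± 1122 CPM after synuclein and 1667 ± 80.6 CPM after saline (SD, n = 3 each). Dnajb1 averaged 105 ± 58.4 CPM after synuclein and 63.6 ± 2.92 CPM after saline, so the spread between libraries was much wider after synuclein for both genes. The HSP90 genes were at 0.53 ± 0.32 for Hsp90aa1 and 0.61 ± 0.31 for Hsp90ab1, Hspb1 at 0.72 ± 0.37, and the mitochondrial Hspd1 and Hspe1 at 0.21 ± 0.28 and 0.41 ± 0.36. The synuclein and saline libraries did not overlap for 1 chaperone, Hspb1, where 4.01% of all genes were higher without overlap. The summed levels of all 8 cell type marker lists overlapped between these groups, as did the ependymal sum without Pltp.

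Most of these values depended on replicate 1 of synuclein at 12 weeks. The median was 0.31 without it, with 9 of 10 chaperones above 0 (47.1% of all genes), and no chaperone had an unadjusted p under 0.05 (4.72% of all genes were higher at that limit). Hspa1a was then at 0.59 ± 0.69, Hspa1b at 0.31 ± 0.97, Hsph1 at 0.30 ± 0.43, Dnajb1 at 0.23 ± 0.30 and Hspa8 at 0.38 ± 0.26 (SE). Hspb1 was at 0.67 ± 0.42 without it, and its groups still did not overlap, as was then so for 11.4% of all genes. Hspb1 turned more on replicate 1 of saline, its lowest library, and was at 0.46 when that library was left out. The number of chaperones higher at an unadjusted p under 0.05, 5 with all libraries, was 2 without replicate 3 of saline at 12 weeks. In that fit 435 of 18100 genes were higher at that limit. The number was 4 to 7 when any other single library but replicate 1 of synuclein at 12 weeks was left out. Leaving out both libraries that stand apart leaves 1 synuclein library, whose spread is assumed to be that of the other groups. In that fit 6 of 10 were above 0 (43.9% of all genes), and the median was 0.04 against -0.10 over all genes.

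**Figure D3:**
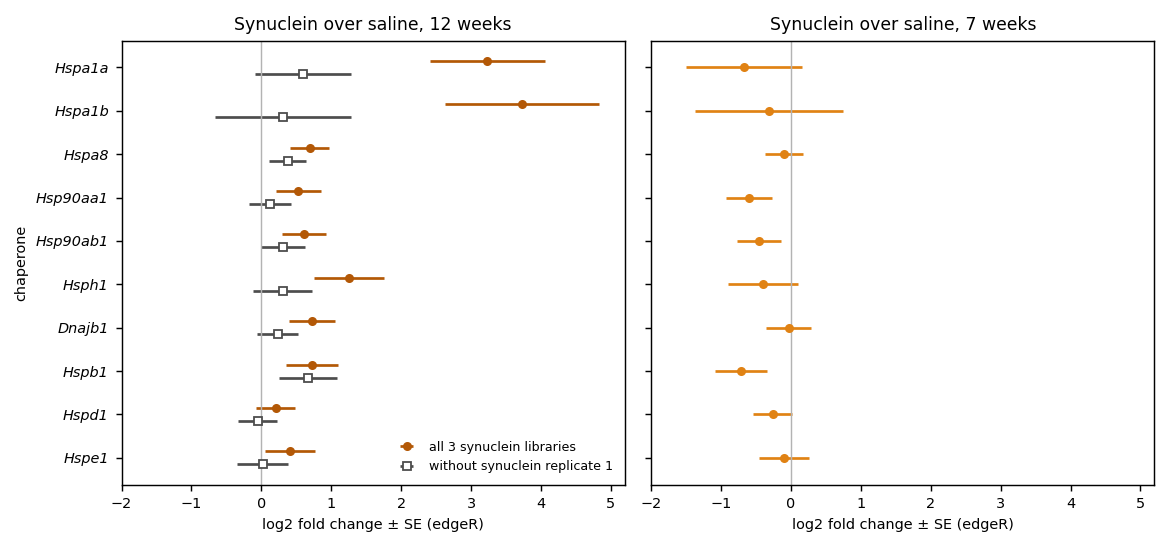
Log2 fold change of synuclein over saline for each chaperone, with SE from the edgeR fit, at 12 weeks (left, with all 3 synuclein libraries as filled circles and without replicate 1 as open squares) and at 7 weeks (right). At 12 weeks the circles of Hspa1a and Hspa1b lie above 3 and the squares lie at 0.59 and 0.31, while at 7 weeks all 10 points lie below 0.

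At 7 weeks the chaperones lay on the other side. All 10 log2 fold changes of synuclein over saline were below 0, where 48.8% of all genes were, with a median of -0.36 against 0.01 over all genes. Hspb1, at -0.71 ± 0.37, averaged 466 ± 179 CPM after synuclein and 763 ± 427 CPM after saline (SD, n = 3 each). Hspa1a was at -0.67 ± 0.83 and Hsp90aa1 at -0.60 ± 0.32, while Hspa8, Hspe1 and Dnajb1 were closest to 0 (-0.10 ± 0.27, -0.10 ± 0.36 and -0.03 ± 0.33, SE). None had an unadjusted p under 0.05 (0.633% of all genes were lower at that limit). Across all genes 285 had an unadjusted p under 0.05 in edgeR, and edgeR (0%), DESeq2 and limma-voom each called 0. The groups did not overlap for 1 chaperone, Hspa1a, where 3.75% of all genes were lower without overlap. When replicate 2 of saline, where Hsp90ab1 and Hspb1 were highest, was left out, the fit put Hspa1b at 0.35, Hspb1 at -0.21, Hsp90ab1 at -0.064 and the median at -0.19. Without replicate 3 of synuclein, the lowest library for 5 chaperones, the median was -0.08 with 2 of 10 above 0 (49.8% of all genes). Without replicate 3 of saline the median was -0.59. The summed levels of all 8 cell type marker lists overlapped between the 7-week groups, as did the ependymal sum without Pltp.

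The test of the difference between these effects, 12 weeks minus 7 weeks, gave a value above 0 for all 10 chaperones (47.4% of all genes), with a median of 1.10 against -0.05 over all genes. An unadjusted p under 0.05 was reached by 6 of them (1.74% of all genes): Hspa1b at 4.05 ± 1.53, Hspa1a at 3.90 ± 1.17, Hsph1 at 1.65 ± 0.70, Hspb1 at 1.43 ± 0.52, Hsp90aa1 at 1.13 ± 0.46 and Hsp90ab1 at 1.07 ± 0.44 (SE). No gene passed the adjusted test in edgeR (0%, while 780 had an unadjusted p under 0.05), DESeq2 or limma-voom, and the edgeR adjusted p of these 6 chaperones was 0.952. Without replicate 1 of synuclein at 12 weeks all 10 values stayed above 0 (46.8% of all genes), the median was 0.68, and 1 chaperone, Hspb1 at 1.39 ± 0.56, had an unadjusted p under 0.05 (3.81% of all genes). Without replicate 2 of saline at 7 weeks the median was 0.95 and Hspb1 was at 0.97. In that fit 1 chaperone had an unadjusted p under 0.05, where 310 of 18118 genes were higher at that limit. Without replicate 3 of synuclein at 7 weeks the median was 0.97 and 3 chaperones did, where 251 of 18080 genes were higher at that limit.

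Change over time was set out within each treatment. These comparisons share their libraries with the ones above, so the values restate the same data from another side. After saline, all 10 chaperones were lower at 12 than at 7 weeks (49% of all genes were), with a median log2 fold change of -0.56 against 0.01 over all genes. Hspb1 averaged 343 ± 124 CPM at 12 weeks and 763 ± 427 CPM at 7 weeks (SD, n = 3 each), a log2 fold change of -1.15 ± 0.37 (edgeR adjusted p = 0.4), and it was the 1 chaperone with an unadjusted p under 0.05 (3.92% of all genes were lower at that limit). Without replicate 2 of saline at 7 weeks it was at -0.65. The saline libraries of the 2 times did not overlap for 5 chaperones, Hspa1a, Hspa8, Hsph1, Dnajb1 and Hspd1, where 7.83% of all genes were lower without overlap. Their log2 fold changes were -0.95 ± 0.84, -0.38 ± 0.27, -0.92 ± 0.50, -0.33 ± 0.33 and -0.39 ± 0.28 (SE). Over all genes edgeR called 0 (0%) and gave 1289 an unadjusted p under 0.05, DESeq2 called 173 and limma-voom 0, with no chaperone among the DESeq2 calls, where Hspa1a and Hspa1b had no adjusted p. The summed levels of 4 of the 8 cell type marker lists did not overlap between the same groups. Summed oligodendrocyte markers were at 24709 to 42165 CPM at 12 weeks and 15609 to 24534 CPM at 7 weeks, while neuronal markers were at 405 to 637 CPM at 12 weeks and 988 to 1340 CPM at 7 weeks. Dopaminergic markers were at 466 to 977 CPM at 12 weeks and 1130 to 1740 CPM at 7 weeks, and endothelial markers at 7490 to 10034 CPM at 12 weeks and 10610 to 18747 CPM at 7 weeks. The ependymal sum, which was mostly Pltp, overlapped. Without Pltp it did not, at 35.0 to 250 CPM at 12 weeks and 8.61 to 17.3 CPM at 7 weeks. Their part in the lower chaperone levels was not tested.

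After synuclein, all 10 chaperones were higher at 12 than at 7 weeks (45.8% of all genes were), with a median of 0.44 against -0.06 over all genes. Hspa1a, at 2.95 ± 0.81 (edgeR adjusted p = 0.409), and Hsp90aa1, at 0.82 ± 0.32 (edgeR adjusted p = 0.567), had an unadjusted p under 0.05 (3.31% of all genes were higher at that limit). The groups overlapped for all 10, where 5.13% of all genes were higher without overlap. Without replicate 1 of synuclein at 12 weeks, 5 chaperones were above 0 and 5 below (46.5% of all genes were above), the median was 0.03, none had an unadjusted p under 0.05 (4.5% of all genes were higher at that limit), and Hspa1a was at 0.32 ± 0.69. Over all genes edgeR called 0 (0%) and gave 1318 an unadjusted p under 0.05, DESeq2 called 59 and limma-voom 0, again with no chaperone among them. Summed oligodendrocyte markers were at 25805 to 37341 CPM at 12 weeks and 16470 to 19583 CPM at 7 weeks, and neuronal markers at 463 to 658 CPM at 12 weeks and 757 to 1975 CPM at 7 weeks. Microglial markers, at 31.6 to 85.9 CPM at 12 weeks and 95 to 372 CPM at 7 weeks, did not overlap either, whereas the dopaminergic sums did, at 509 to 654 CPM at 12 weeks and 578 to 2162 CPM at 7 weeks. The part of these cell types in the chaperone values was not tested.

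Correlations between the chaperones were mostly positive across libraries. Over 12 libraries, Pearson's r of log2 CPM was positive for all 45 pairs of members, with a median of 0.64. Over 11 libraries without replicate 1 of synuclein at 12 weeks, 43 pairs were positive and the median was 0.40, with r from -0.12 to 0.84. The member least like the mean of the other 9 was Hspb1 over 12 libraries (r = 0.38, and 0.40 over 11) and Dnajb1 over 11 libraries (r = 0.30, and 0.77 over 12). These correlations are descriptions across libraries that share groups and scaling, and pairs of other genes were not computed for reference.

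Among genes outside the 10, those most like the mean of the chaperones over 12 libraries were largely other chaperones. They were Hspa5, the HSP70 of the endoplasmic reticulum (r = 0.93), Stip1, the adaptor that joins HSP70 to HSP90 (0.91), Hspa4l, an HSP110 relative (0.91), Dnaja1, a J-domain protein (0.82), Nudc, an HSP90 co-chaperone (0.82), and Ccdc6 (0.81). Over the 11 libraries without replicate 1 of synuclein at 12 weeks they were Cds2 (0.93), Fbll1 (0.91), Zdbf2 (0.89), Hspa4l (0.89), Sucla2 (0.88) and Syn2 (0.88), and Hspa4l was the 1 gene on both lists.

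The wider chaperone network held 69 further genes in 8 lists, of which 67 were tested and 0 were called in any comparison. In replicate 1 of synuclein at 12 weeks, 13 of the 67 were the highest (19.4%, against 12% of all genes) and 7 of the 67 were above 2 times the median of the other libraries, a share no larger than the 12% of all genes. Co-chaperones of HSP90 and HSP70 included 5 of these 13, among them Stip1 at 2.57 and Ahsa1, the activator of the HSP90 ATPase, at 2.21 times. Dnaja1 stood at 2.03 times, Hspa4l at 2.68, Hspa5 at 2.65 and Cryab, a small heat-shock protein abundant in oligodendrocytes, at 2.93. Of the factor genes, none was highest there, with Hsf1 at 1.01 times and Hsf2 at 0.33 times, and Hspb6 was at 0. The list medians were between 0.997 and 1.19 times, against 2.06 for the 10 chaperones.

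**Figure D4:**
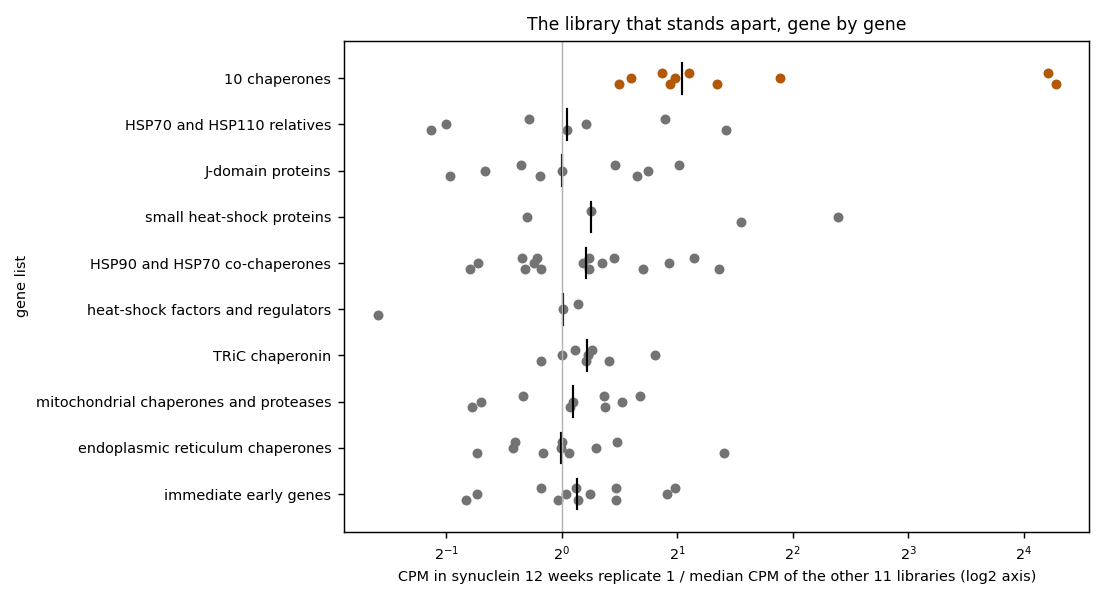
Ratio of the CPM in replicate 1 of synuclein at 12 weeks to the median of the other 11 libraries (log2 axis) for the 10 chaperones and 9 other gene lists, immediate early genes included. Points are genes and vertical bars are list medians, and Hspb6, at 0 in that library, cannot be drawn. The bar of the chaperones is at 2.06 and those of the other lists are between 0.997 and 1.19.

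At 12 weeks the co-chaperones had a median log2 fold change of synuclein over saline of 0.50, with 14 of 16 above 0, where 47.3% of all genes were. Without replicate 1 of synuclein the median was 0.41, with 15 of 16 above 0. The most abundant of them were Stub1, a ubiquitin ligase that tags HSP70 clients, at -0.03 ± 0.23, Fkbp4, an immunophilin partner of HSP90, at 0.45 ± 0.27, Bag1, a nucleotide exchange factor of HSP70, at 0.71 ± 0.31, and Ptges3, the p23 co-chaperone, at 0.49 ± 0.25 (SE). The TRiC chaperonin, which folds actin and tubulin, had a median of 0.30 (7 of 8 above 0), small heat-shock proteins 0.34 (4 of 5), HSP70 and HSP110 relatives 0.19 (4 of 7), endoplasmic reticulum chaperones 0.16 (6 of 10), mitochondrial chaperones and proteases 0.12 (5 of 9), J-domain proteins 0.11 (6 of 9) and heat-shock factors -0.06 (1 of 3). Hspa9, the HSP70 of the mitochondrial matrix, was at 0.92 ± 0.24 (edgeR adjusted p = 0.83) and at 1.0 without replicate 1 of synuclein. Leaving out that library thus did not lower the value of Hspa9, as it did those of the inducible HSP70 genes.

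The most abundant genes of the other lists showed both directions at 12 weeks, and none was called. Among HSP70 and HSP110 relatives, Hspa4l was at 1.14 ± 0.45 (0.57 without replicate 1 of synuclein), Hspa14 at 0.32 ± 0.26, Hspa12b at 0.19 ± 0.35 and Hspa4 at -0.33 ± 0.27 (SE). Among J-domain proteins, Dnaja1 was at 0.83 ± 0.27, Dnajc5, which guards synaptic vesicle proteins, at 0.46 ± 0.23, Dnajb2 at -0.15 ± 0.27 and Dnajb6 at -0.22 ± 0.21. Of the small heat-shock proteins, Cryab was at 0.32 ± 0.38 (0.02 without replicate 1 of synuclein), Hspb8, a partner of the co-chaperone Bag3, at 0.34 ± 0.28, and the low-count Hspb6 and Hspb7 at -0.31 ± 0.90 and 1.23 ± 1.23. The chaperones of the endoplasmic reticulum, Hspa5 at 0.75 ± 0.29 (0.25 without replicate 1 of synuclein), the lectin Calr at 0.44 ± 0.27, the disulfide isomerase Pdia3 at 0.33 ± 0.26 and the HSP90 paralog Hsp90b1 at 0.25 ± 0.23, were all above 0. Among TRiC subunits, Cct6a was at 0.41 ± 0.26, Cct5 at 0.20 ± 0.22, Cct7 at 0.12 ± 0.20 and Cct8 at -0.07 ± 0.25. Of the other mitochondrial genes, Dnaja3 was at 0.22 ± 0.31, Grpel1, the exchange factor of Hspa9, at -0.02 ± 0.28 and the protease subunit Clpp at -0.08 ± 0.25. The transcription factor Hsf1, at -0.06 ± 0.29, and its binding protein Hsbp1, at -0.18 ± 0.23, were close to 0 beside their errors.

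At 7 weeks the co-chaperones had a median of -0.15 with 13 of 16 below 0, and the endoplasmic reticulum chaperones -0.47 with 9 of 10 below 0, where 48.8% of all genes were. The other lists had medians between -0.21 and 0.08. No gene of these lists was called at either time.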

How the data were processed

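Estimated counts and FPKM per gene were deposited by the authors, per the file headers of Cufflinks tracking tables. Per the submitters' processing notes, TopHat2 2.0.13, Bowtie2 2.2.3 and Cufflinks 2.2.1 were used. A genome build was not stated there, and deposited gene starts equal RefSeq GRCm38.p6 starts for 7 members. In each library 98.8% to 98.9% of deposited counts above 0 were whole multiples of 1 step within 0.02 fragments, which gave whole fragments. Another 60 columns of per-sample values (variances and confidence bounds) were not used. Estimated counts were rounded and fitted over all 12 libraries with 1 mean per group (R 4.3.3, edgeR 4.0.16, TMM scaling, filterByExpr, quasi-likelihood test, Benjamini-Hochberg over 17380 genes, threshold 0.05). CPM are TMM-scaled. Alternatives used DESeq2 1.42.0 and limma 3.58.1. The code was tested on simulated data.

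The members and lists were chosen with earlier results of these data known. Genes named were the 10 members, up to 4 most abundant genes of each list, and the 6 genes most alike. Ahsa1 was named after its value was seen. Promoters come from RefSeq GRCm38.p6 and coding sequences from GENCODE M21.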

Additional observations from a re-analysis of the deposited data

How the results depend on the processing

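No chaperone that was given an adjusted p passed the threshold under the alternatives run. DESeq2 gave none to Hspa1a in any comparison and none to Hspa1b for 12 over 7 weeks after saline. Of the values fitted for single chaperones, 1111 of 1140 kept their sign. The median log2 fold change of the 10 chaperones over leave-one-out fits was 0.31 to 0.88 for synuclein over saline at 12 weeks, -0.59 to -0.08 at 7 weeks, 0.68 to 1.33 for the difference between them, -0.69 to -0.45 for 12 over 7 weeks after saline and 0.03 to 0.68 after synuclein. Without both libraries that stand apart, the medians were 0.041 at 12 weeks, 0.38 for the difference and -0.21 for 12 over 7 weeks after synuclein. Over all genes the medians of these fits were -0.097, -0.14 and -0.093. In that setting Hsph1 (-0.15), Dnajb1 (-0.038), Hspd1 (-0.028) and Hspe1 (-0.034) changed sign at 12 weeks, and Hspa1b (-0.30), Hspa8 (-0.25), Hsp90ab1 (-0.12), Hsph1 (-0.68), Dnajb1 (-0.34), Hspd1 (-0.16) and Hspe1 (-0.43) for 12 over 7 weeks after synuclein. Without TMM scaling Dnajb1 was at 0.056 at 7 weeks and Hspe1 at -0.054 for 12 over 7 weeks after synuclein, where limma-voom put Hspa1b at -0.12. TMM left the median of all genes between -0.06 and 0.01, and without it that median was -0.18 for the difference between the effects and -0.13 for 12 over 7 weeks after synuclein. Over leave-one-out fits, sign changes were seen for Hspd1 at 12 weeks (-0.052 to 0.39), for Hspa1b (-0.71 to 0.35), Hspa8 (-0.25 to 0.090), Dnajb1 (-0.19 to 0.20) and Hspe1 (-0.47 to 0.11) at 7 weeks, and for Hspa1b (-1.16 to 2.86), Hsph1 (-0.20 to 1.36), Dnajb1 (-0.050 to 0.70), Hspd1 (-0.17 to 0.31) and Hspe1 (-0.36 to 0.41) for 12 over 7 weeks after synuclein. The cause of these changes was not tested.

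The number of genes called, 0 in every main comparison, was 12 at 12 weeks with DESeq2, 1 with limma on log2(FPKM + 1) and 2 on log2(FPKM + 0.1). For the difference between the effects it was 1 with either limma setting. For 12 over 7 weeks after saline it was 173 with DESeq2, 7 with no filter on low counts, 1 and 2 with limma at pseudocounts of 1 and 0.1, 49 with the libraries of those 2 groups alone, 14 without both libraries that stand apart, and 34 with the replicate number as a block, although the numbers did not pair the libraries (correlations of same-numbered deviations -0.06 to 0.09). On the recovered whole fragments edgeR called 0 in each of the 5 comparisons. For 12 over 7 weeks after synuclein it was 59 with DESeq2. Leave-one-out fits called 0 to 1 genes at 12 weeks, 0 to 1 at 7 weeks, 0 to 9 for 12 over 7 weeks after saline and 0 to 2 after synuclein. With the block the median of the chaperones was 0.64 at 12 weeks and -0.36 at 7 weeks. With a shared biological variation of 46.6% (edgeR's common value, as a coefficient of variation) and 3 libraries per group, the low counts of Hspa1a and Hspa1b limit what can be resolved.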
